A study of Mus musculus with 9 samples.

Results

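The genes described here are 10 genes of resident liver macrophages, or Kupffer cells: Clec4f, Vsig4, Timd4, Cd5l, Marco, Folr2, Cd163, Mrc1, Msr1 and Slc40a1. They were chosen by symbol, as identity and scavenger receptor genes, with no measured value in the rule, although earlier results of these data were known when the list was drawn up. Each matched 1 row of a table of 45513 genes. RNA came from whole liver of C57BL/6 mice, with 3 animals in each of 3 groups, after 9 weeks of diet and treatment. The first group received B-LGND2, an estrogen receptor beta ligand, on a high fat diet. The second received vehicle on the high fat diet, and the third received vehicle on a normal diet. The sources used here do not state the dose or route of B-LGND2 or the sex and age of the mice, and B-LGND2 was not given to mice on the normal diet.

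Kupffer cells sit inside the sinusoids, the capillaries of the liver, where they clear particles, bacteria, aged red cells and modified lipoproteins from the blood. Their identity is set by lineage factors such as PU.1 together with signals from the neighbouring endothelial and stellate cells, among them Notch ligands acting through RBPJ. Their surface receptors divide the work: Clec4f binds glycans, Vsig4 binds complement fragments, Timd4 binds the phosphatidylserine of dying cells, and Marco and Msr1 are class A scavenger receptors for bacteria and modified lipoproteins. Cd163 takes up haemoglobin, Mrc1 takes up mannosylated glycoproteins, Folr2 binds folate, and Slc40a1 (ferroportin) returns iron to the blood. Cd5l is the exception, a secreted scavenger-receptor-like protein that circulates with IgM.

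On the high fat diet, the 10 genes were higher in all 3 B-LGND2 livers than in all 3 vehicle livers, and 7 of them passed the test. Their summed level was 757.3, 871 and 956.1 counts per 1000000 counts (CPM) in B-LGND2 livers, against 276.1, 277.6 and 363.6 CPM in vehicle livers on the same diet. Vehicle livers on the normal diet had 337.2, 301.5 and 423.4 CPM. The vehicle groups overlapped each other and neither reached the B-LGND2 livers. Cd5l, at 4.5-fold, and Marco, at 11.8-fold, had the largest fold changes among the 10 genes. In whole tissue, more cells of a type and more RNA per cell cannot be told apart.

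Promoters are shown only for the 4 genes in which a short motif of PU.1, the macrophage lineage factor, was found. RefSeq promoters (assembly GRCm38.p6), which run from 250 bases before to 50 bases after the transcription start, were found for 8 of the 10 genes, with 9 windows in all because Folr2 has 2. Msr1 and Slc40a1 were not matched. The PU.1 core, GAGGAA on either strand, lay in the promoters of 4 of the 8 genes (Vsig4, Cd5l, Marco and Mrc1), and 28.3% of 32851 promoters of the same length hold it. Each sequence below is written along its gene, 5′ to 3′, with the PU.1 cores in capitals (TTCCTC where the core is on the opposite strand).
Vsig4 (chrX:96293389-96293688, minus strand): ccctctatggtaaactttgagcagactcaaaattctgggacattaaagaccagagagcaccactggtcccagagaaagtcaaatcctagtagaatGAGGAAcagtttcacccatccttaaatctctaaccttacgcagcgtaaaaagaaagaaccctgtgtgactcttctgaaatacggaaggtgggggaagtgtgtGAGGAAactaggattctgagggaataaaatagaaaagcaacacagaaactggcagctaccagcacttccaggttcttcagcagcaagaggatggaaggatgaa
Cd5l (chr3:87357631-87357930, plus strand): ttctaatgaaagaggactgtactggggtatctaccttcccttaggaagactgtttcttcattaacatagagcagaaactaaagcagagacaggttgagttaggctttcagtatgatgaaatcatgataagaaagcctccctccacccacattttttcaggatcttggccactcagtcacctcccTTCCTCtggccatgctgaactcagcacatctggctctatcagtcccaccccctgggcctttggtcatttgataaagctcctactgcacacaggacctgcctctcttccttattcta
Marco (chr1:120504975-120505274, minus strand): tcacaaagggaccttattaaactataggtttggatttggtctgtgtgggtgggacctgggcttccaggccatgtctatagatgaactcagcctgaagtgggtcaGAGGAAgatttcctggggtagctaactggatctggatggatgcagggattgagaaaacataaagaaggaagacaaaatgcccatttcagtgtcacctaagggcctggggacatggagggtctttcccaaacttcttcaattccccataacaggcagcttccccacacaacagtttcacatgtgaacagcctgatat
Mrc1 (chr2:14229164-14229463, plus strand): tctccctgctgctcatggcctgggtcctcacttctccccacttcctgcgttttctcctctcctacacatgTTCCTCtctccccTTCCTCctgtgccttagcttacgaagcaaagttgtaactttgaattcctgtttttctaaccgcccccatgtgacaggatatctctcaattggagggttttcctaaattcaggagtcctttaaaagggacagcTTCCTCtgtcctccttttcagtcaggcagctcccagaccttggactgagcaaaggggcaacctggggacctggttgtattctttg
Vsig4 holds the core at -155 and -53 relative to the start, and Marco at -146. Cd5l holds it at -66, and Mrc1 at -180, -167 and -35, all on the opposite strand. The RBPJ core TGGGAA lay in Clec4f and Marco, at 25.6% of all promoters, and the nuclear receptor half-site AGGTCA in Clec4f and Timd4, at 16.3%. The E-box CACGTG, at 7.15% of all promoters, and the estrogen response element GGTCANNNTGACC, at 0.07%, had no match in the 9 windows. The motifs do not overlap in letters with one another in these windows, and a match describes letters only.

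The libraries held between 5778978 and 10322972 reads assigned to genes, and both ends of that range were B-LGND2 livers. Hepatocyte markers summed to between 86900 and 128000 CPM in B-LGND2 livers, between 88400 and 95500 CPM in vehicle livers on the high fat diet and between 84000 and 95600 CPM on the normal diet, so the defining genes of the labelled tissue were abundant. The share of counts on ribosomal RNA genes was 5.51% ± 1.04 in B-LGND2 livers, 1.20% ± 0.275 in high fat vehicle livers and 3.42% ± 0.299 in normal diet livers (SD, n = 3 each), and the 3 groups did not overlap. With that share as a covariate in edgeR, 0 of the 10 genes passed (Benjamini-Hochberg threshold 0.05) and 2 of all 12102 genes did. All 10 log2 fold changes between B-LGND2 and vehicle on the high fat diet stayed positive in that fit, between 0.62 and 3.95. The rRNA share and the treatment group cannot be told apart here. Mitochondrially encoded genes took between 3.69% and 12.7% of counts, with the highest share in normal diet replicate 1.

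The comparison of B-LGND2 with vehicle on the high fat diet asks how the ligand related to these genes when the diet is the same. All 10 genes had enough counts for the test, the quasi-likelihood F test of edgeR. Its p-values were adjusted by Benjamini-Hochberg over 12102 genes, with a threshold of 0.05. Marco had enough counts only through the B-LGND2 livers. With only the 2 vehicle groups in the fit, 9 of the 10 genes were tested, all but Marco. Higher calls numbered 7 of the 10 genes and lower calls 0, where 3.07% of all genes tested were called higher, 2.56% lower and 5.63% in either direction. The libraries of the B-LGND2 and vehicle groups did not overlap for 10 of 10 genes, where 16.3% of all genes tested were higher in this way. The median log2 fold change of the 10 genes was 1.31, with a range from 0.65 to 3.57, beside a median of -0.0036 over all genes tested.

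**Figure D1:**
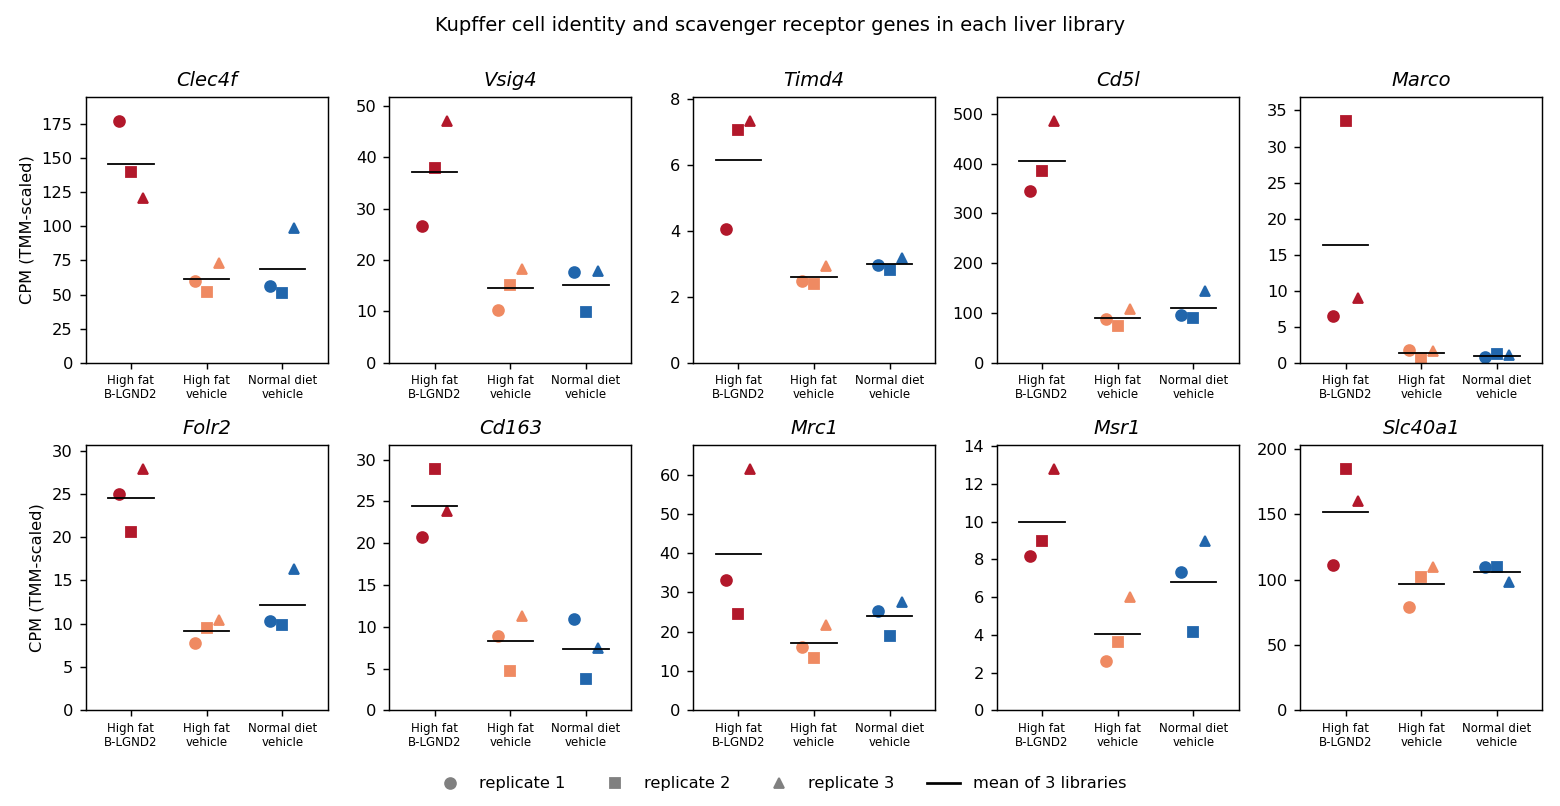
Level of each of the 10 genes in every library, in CPM on a linear axis from 0, with B-LGND2 on the high fat diet left of vehicle on the high fat diet and vehicle on the normal diet. Points are libraries (3 per group, a shape per replicate number) and lines are group means; the B-LGND2 points lie above the high fat vehicle points for all 10 genes.

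Clec4f, a C-type lectin that in mouse is found almost exclusively on Kupffer cells (chr6:83644542-83656187, GRCm38), was counted 1528, 956 and 731 times in B-LGND2 livers, against 362, 348 and 528 times in vehicle livers on the high fat diet. At 177, 140 and 121 CPM in B-LGND2 livers and 59.6, 52.2 and 73.4 CPM in vehicle livers, the groups were well apart. The gene rose by a log2 fold change of 1.24 (SE 0.26, edgeR, Benjamini-Hochberg adjusted p = 0.0161). Vsig4, the complement receptor CRIg (chrX:96247203-96293438), stood at 26.6, 38 and 47 CPM in B-LGND2 livers, against 10.2, 15.2 and 18.2 CPM in vehicle livers. It too separated the groups and rose, with a log2 fold change of 1.35 (SE 0.30, edgeR, Benjamini-Hochberg adjusted p = 0.0194). Timd4, the phosphatidylserine receptor of long-lived resident macrophages (chr11:46810800-46844332), was sparser than Clec4f, Vsig4 and Folr2. It had 35, 48 and 44 counts in B-LGND2 livers and 15, 16 and 21 counts in vehicle livers. Its libraries did not overlap, yet it did not pass the test, with a log2 fold change of 1.22 (SE 0.36, edgeR, Benjamini-Hochberg adjusted p = 0.0583). Folr2, folate receptor beta (chr7:101839988-101857194), had 25, 20.6 and 27.9 CPM in B-LGND2 livers, against 7.73, 9.45 and 10.4 CPM in vehicle livers. The lowest B-LGND2 liver had more than any vehicle liver, and Folr2 rose by a log2 fold change of 1.41 (SE 0.27, edgeR, Benjamini-Hochberg adjusted p = 0.0103). An antisense gene model, Gm10602, overlaps exons of Folr2. The sources used here do not state the strand setting of the counting, and Gm10602 itself had 16 counts over the 9 libraries.

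Cd5l, the secreted protein also called AIM (chr3:87357881-87371073), had the highest level of the 10 genes per length of exon in each group. It was counted 2989, 2619 and 2920 times in B-LGND2 livers, against 533, 495 and 774 times in vehicle livers on the high fat diet. That is 345, 385 and 485 CPM in B-LGND2 livers and 87.7, 74.3 and 108 CPM in vehicle livers, with a wide gap between the groups. The log2 fold change was 2.17 (SE 0.25, edgeR, Benjamini-Hochberg adjusted p = 0.000188), and Cd5l ranked 8 of 12102 genes by p. Leaving out any of the 9 libraries kept its call, with log2 fold changes between 2.02 and 2.32.

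Marco, a class A scavenger receptor for bacteria and particles (chr1:120474538-120505024), was scarce in vehicle livers and uneven in treated ones. It had 56, 228 and 54 counts in B-LGND2 livers, against 11, 4 and 12 counts in high fat vehicle livers and 5, 7 and 8 counts in normal diet livers. On the CPM scale that was 6.47, 33.5 and 8.97 in B-LGND2 livers, against 1.81, 0.6 and 1.67 in high fat vehicle livers. Replicate 2 of the B-LGND2 group stood far above the other two treated livers, although each of these also lay above every vehicle liver. Marco rose by a log2 fold change of 3.57 (SE 0.59, edgeR, Benjamini-Hochberg adjusted p = 0.00502). Without replicate 2 of the B-LGND2 group the log2 fold change was 2.51, and the call held in all 9 fits that left out a library. Marco passed the count filter only through the B-LGND2 livers, the group in which it was high. Msr1, the other class A receptor (chr8:39581685-39642673), had 71, 61 and 77 counts in B-LGND2 livers and 16, 24 and 43 counts in vehicle livers. Its log2 fold change was 1.27 (SE 0.37), and it did not pass the test (edgeR, Benjamini-Hochberg adjusted p = 0.0558).

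Cd163, the haemoglobin scavenger receptor (chr6:124304656-124330527), had 20.7, 28.9 and 23.8 CPM in B-LGND2 livers, against 8.89, 4.65 and 11.3 CPM in vehicle livers on the high fat diet. It rose by a log2 fold change of 1.56 (SE 0.36, edgeR, Benjamini-Hochberg adjusted p = 0.0221), with every treated liver above every vehicle liver. Mrc1, the mannose receptor CD206 (chr2:14229392-14332057), is made by sinusoidal endothelium as well as by macrophages. It had 33.2, 24.4 and 61.5 CPM in B-LGND2 livers, against 16.1, 13.4 and 21.7 CPM in vehicle livers, and replicate 3 of the treated group was well above the other two. Mrc1 rose by a log2 fold change of 1.21 (SE 0.32, edgeR, Benjamini-Hochberg adjusted p = 0.0369). Without that replicate its log2 fold change was 0.75 and it lost its call, as it also did when libraries were scaled by their totals alone (log2 fold change 1.06, adjusted p = 0.0675 in edgeR).

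Slc40a1, the iron exporter (chr1:45908068-45926523), is expressed by hepatocytes and other liver cells besides macrophages. It had 111, 185 and 160 CPM in B-LGND2 livers, against 79, 102 and 110 CPM in vehicle livers on the high fat diet. The groups did not overlap, but the lowest treated liver and the highest vehicle liver lay side by side. It had the smallest log2 fold change of the 10 genes, 0.65 (SE 0.23), and did not pass the test (edgeR, Benjamini-Hochberg adjusted p = 0.0968).

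**Figure D2:**
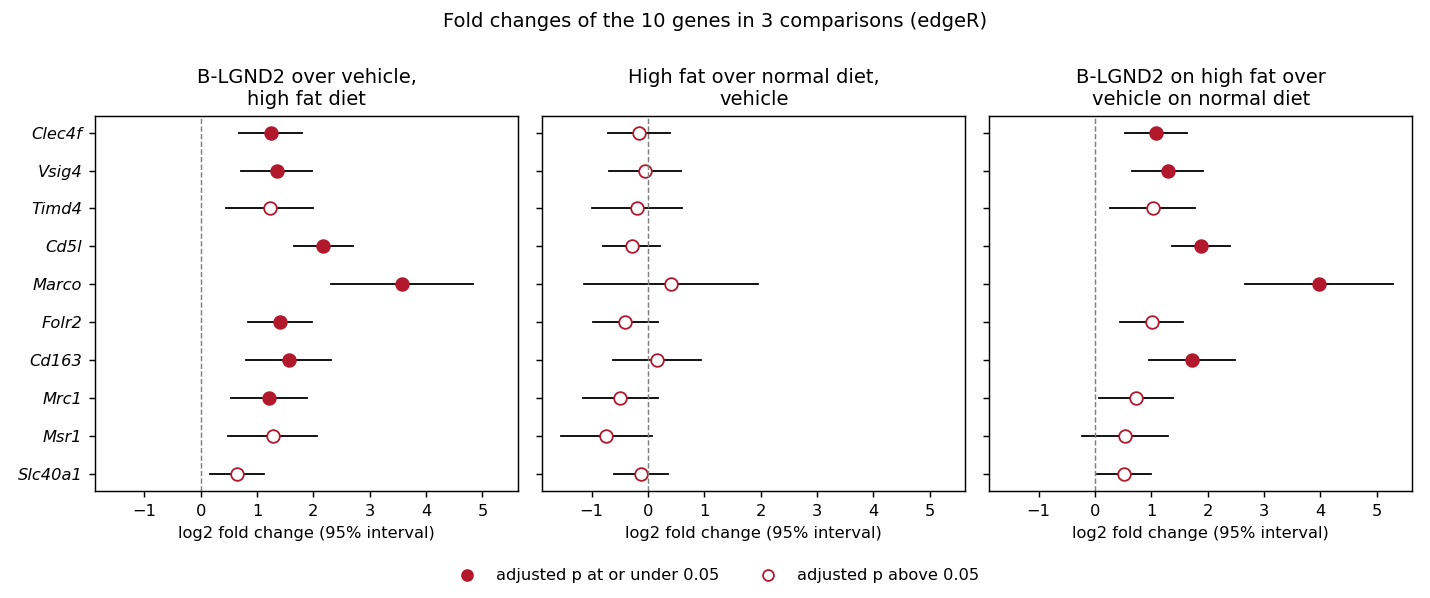
Log2 fold change of each of the 10 genes in the 3 comparisons, with 95% confidence intervals from edgeR; filled points passed the adjusted p threshold of 0.05. B-LGND2 over high fat vehicle gave 10 positive values between 0.65 and 3.57, while the diet comparison under vehicle lay between -0.73 and 0.41.

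The calls rested unevenly on single libraries. Over the 9 fits that each left out 1 library, Cd5l and Marco were called higher in B-LGND2 than in high fat vehicle livers in 9, Folr2 in 7, Clec4f and Vsig4 in 6, Cd163 in 5 and Mrc1 in 4. Timd4 and Msr1 were called in 2 and Slc40a1 in 0. Without high fat vehicle replicate 1 or 2, Cd5l and Marco were the 2 genes called. Over all genes, calls went from 681 of 12102 to 123 of 12505 without replicate 1 and 100 of 12478 without replicate 2. Without B-LGND2 replicate 1 the count was 4 of the 10 genes, and 134 of 12390 over all genes. All 10 log2 fold changes were positive in each of the 9 fits.

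**Figure D3:**
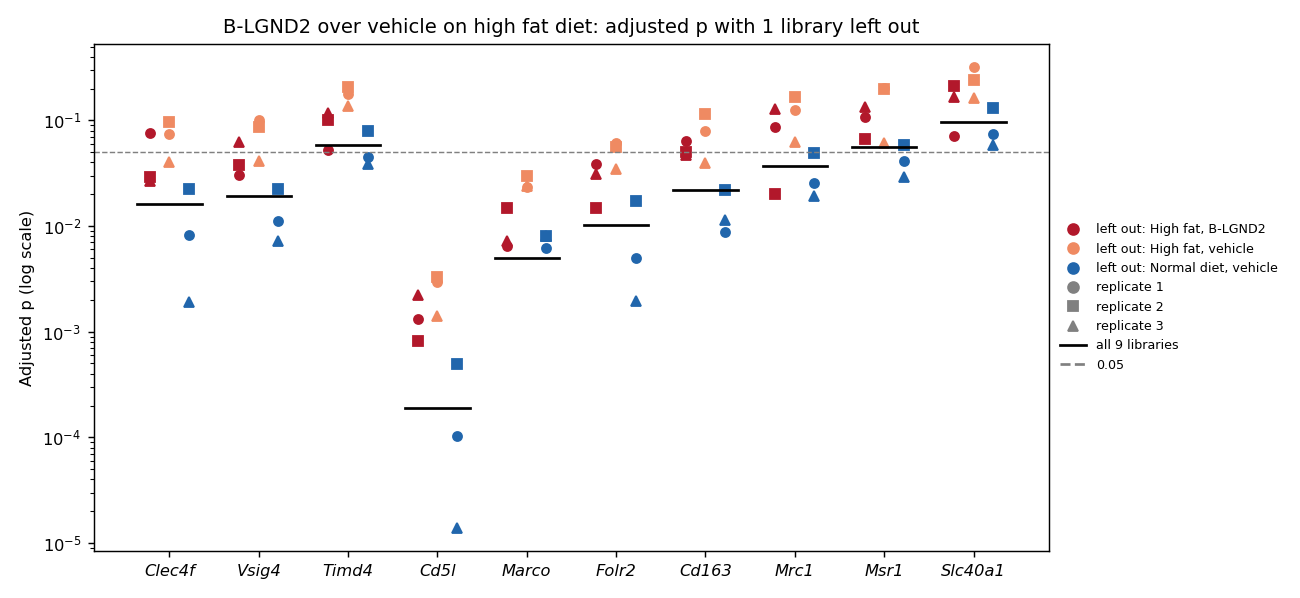
Adjusted p of each of the 10 genes between B-LGND2 and high fat vehicle in edgeR, on a log axis, with all 9 libraries (line) and with each library left out in turn (points, coloured by the group and shaped by the replicate number left out). Cd5l and Marco stay under the dashed threshold of 0.05 throughout, with a highest value of 0.00332 for Cd5l and 0.0297 for Marco.

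The comparison of high fat with normal diet under vehicle asks whether the diet itself moved these genes. Calls numbered 0 of 10 (edgeR, Benjamini-Hochberg threshold 0.05), where 2.99% of all genes tested were called, and 0 of 10 had an unadjusted p under 0.05, where 22.4% of all genes did. DESeq2 also called 0. The median log2 fold change was -0.18, with 2 positive and 8 negative values, where 50.4% of all genes tested were positive. Msr1 was the furthest down, at 2.63, 3.6 and 5.98 CPM in high fat vehicle livers, against 7.31, 4.13 and 8.97 CPM in normal diet livers. Its log2 fold change of -0.73 had a 95% interval from -1.54 to 0.07 (edgeR, Benjamini-Hochberg adjusted p = 0.264). Mrc1 followed at -0.49, with an interval from -1.16 to 0.18. Cd5l had 87.7, 74.3 and 108 CPM in high fat vehicle livers, against 95.5, 89.3 and 144 CPM in normal diet livers, and Clec4f had 59.6, 52.2 and 73.4 CPM in high fat vehicle livers, against 56.6, 51.5 and 98.5 CPM in normal diet livers. In both genes the highest normal diet liver, replicate 3, stood apart from the other 5 libraries. For Cd5l the log2 fold change was -0.29, with an interval from -0.79 to 0.22, and for Clec4f -0.16, with an interval from -0.71 to 0.39. Vsig4 had 10.2, 15.2 and 18.2 CPM in high fat vehicle livers, against 17.6, 9.9 and 17.8 CPM in normal diet livers, nearly the same range. Marco, with 1.81, 0.6 and 1.67 CPM in high fat vehicle livers and 0.778, 1.16 and 1.1 CPM in normal diet livers, had an interval from -1.13 to 1.96, too wide at these counts to bound a change. The intervals of the other 7 genes, those of Cd5l and Clec4f included, lay between -0.997 (Timd4) and 0.94 (Cd163). The direction of Clec4f, Vsig4, Timd4, Cd163 and Slc40a1 turned round under at least 1 other setting.

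The livers given B-LGND2 on the high fat diet were also set against vehicle on the normal diet, a comparison in which diet and ligand differ together and which shares its libraries with the other comparisons. Higher calls numbered 5 of 10 genes, Clec4f, Vsig4, Cd5l, Marco and Cd163, where 1.59% of all genes tested were called higher and 2.93% were called in either direction. Cd5l averaged 405 ± 72.2 CPM in B-LGND2 livers and 110 ± 29.9 CPM in normal diet livers (SD, n = 3 each), a log2 fold change of 1.89 (edgeR, Benjamini-Hochberg adjusted p = 8e-04). Marco averaged 16.3 ± 14.9 CPM in B-LGND2 livers and 1.01 ± 0.205 CPM in normal diet livers, with a log2 fold change of 3.98 (edgeR, Benjamini-Hochberg adjusted p = 0.00341). These 2 genes kept their call without any of the 9 libraries, and without B-LGND2 replicate 2 the log2 fold change of Marco was 2.90. Cd163 rose by 1.72 on the log2 scale (adjusted p = 0.0186), Vsig4 by 1.29 (adjusted p = 0.0292) and Clec4f by 1.08 (adjusted p = 0.035, all edgeR with Benjamini-Hochberg). In leave-one-out fits Cd163 was called in 7 of 9, Vsig4 in 6 and Clec4f in 2, and Clec4f was not called with only the 2 groups in the fit (adjusted p = 0.0852 in edgeR). Folr2 fell just outside the threshold, with 24.5 ± 3.7 CPM in B-LGND2 livers and 12.2 ± 3.58 CPM in normal diet livers (edgeR, Benjamini-Hochberg adjusted p = 0.0503). Timd4 averaged 6.13 ± 1.82 CPM in B-LGND2 livers and 2.98 ± 0.185 CPM in normal diet livers and Slc40a1 152 ± 37.4 CPM in B-LGND2 livers and 106 ± 6.64 CPM in normal diet livers, and neither passed (edgeR, Benjamini-Hochberg adjusted p = 0.132 for Timd4 and 0.217 for Slc40a1). The groups did not overlap for 8 of the 10 genes, where 10.5% of all genes tested were higher in this way, and overlapped for Mrc1 and Msr1. Mrc1 averaged 39.7 ± 19.4 CPM in B-LGND2 livers and 23.9 ± 4.45 CPM in normal diet livers, with a log2 fold change of 0.72. Msr1 averaged 9.98 ± 2.46 CPM in B-LGND2 livers and 6.8 ± 2.46 CPM in normal diet livers, with a log2 fold change of 0.54 (edgeR, Benjamini-Hochberg adjusted p = 0.211 for Mrc1 and 0.431 for Msr1). Without B-LGND2 replicate 2, or without normal diet replicate 2, 2 genes were called in place of 5. Over all genes the calls in those fits were 221 of 12349 and 111 of 12499, in place of 354 of 12102.

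The make-up of the summed level differed in its means between groups, and the unequal change was not established by a test. Cd5l made up 46.8% ± 3.47 of their summed CPM in B-LGND2 livers, against 29.4% ± 2.51 in high fat vehicle livers and 30.6% ± 2.97 in normal diet livers (SD, n = 3 each). Slc40a1 made up 17.6% ± 3.33 in B-LGND2 livers, 31.9% ± 4.26 in high fat vehicle livers and 30.8% ± 6.8 in normal diet livers. Clec4f held 17.4% ± 5.41 in B-LGND2 livers, 20.2% ± 1.38 in high fat vehicle livers and 19% ± 3.66 in normal diet livers. The mean part of Cd5l was larger and that of Slc40a1 smaller in treated livers, while the part of Clec4f differed between groups by less than its SD in treated livers.

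**Figure D4:**
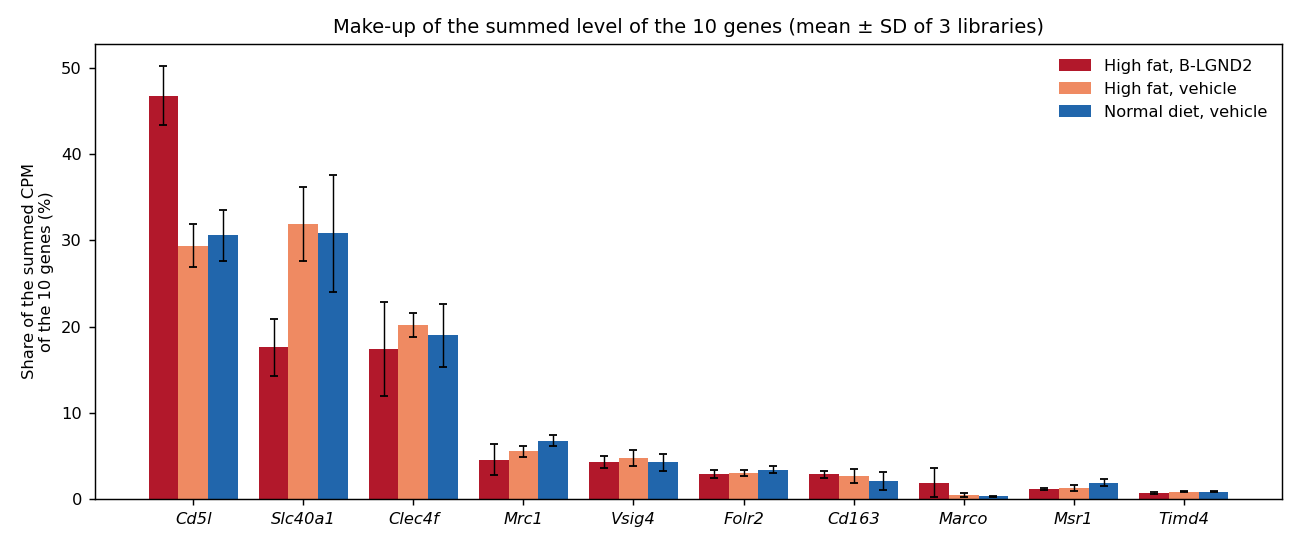
Share of each of the 10 genes in their summed CPM, in percent, as group means with SD bars (3 libraries each) and B-LGND2 left of high fat vehicle and normal diet vehicle. The share of Cd5l is 46.8% in B-LGND2 livers, 29.4% in high fat vehicle livers and 30.6% in normal diet livers.

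Set over Clec4f, the most Kupffer-restricted of the 10 genes, Cd5l had a log2 ratio of 1.47 ± 0.51 in B-LGND2 livers and 0.54 ± 0.03 in high fat vehicle livers (SD, n = 3 each, log2 of CPM + 0.5), a difference of 0.93. For Marco the difference was 1.66 and for Slc40a1 -0.60, and for these 3 ratios the groups did not overlap. With a pseudocount of 2 the difference for Marco was 0.95 and its groups overlapped (exact permutation p = 0.4), while Cd5l and Slc40a1 still separated the groups. With the pseudocount of 0.5 each had an exact two-sided permutation p of 0.1, the smallest that 3 against 3 livers allow, and 0.45 after Benjamini-Hochberg adjustment over the 27 ratios computed. The other 6 ratios overlapped between B-LGND2 and high fat vehicle livers, with differences between -0.17 and 0.34. Between the diets under vehicle, Msr1 over Clec4f was lower by 0.57 on the log2 scale in high fat livers, without overlap (exact permutation p = 0.1).

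Divided by the length of the merged exons, Cd5l had the highest level in all 3 groups, at 199 CPM per kilobase in B-LGND2 livers, 44.1 in high fat vehicle livers and 53.8 in normal diet livers. Clec4f came second, at 59.1 CPM per kilobase in B-LGND2 livers, 25 in high fat vehicle livers and 27.9 in normal diet livers. Vsig4, Slc40a1 and Folr2 held the next places in every group, and Vsig4 (25.1 CPM per kilobase) stood above Slc40a1 (16.9) in B-LGND2 livers, while Vsig4 (9.79) stood below Slc40a1 (10.8) in high fat vehicle livers. Marco was at rank 6 in B-LGND2 livers, against rank 9 in high fat vehicle livers and rank 10 in normal diet livers. At the low end, Msr1 had 1.57 CPM per kilobase in B-LGND2 livers, 0.642 in high fat vehicle livers and 1.07 in normal diet livers. No test of this order was made.

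Within each group, most of the genes were high or low in the same animals. In high fat vehicle livers, replicate 3 had the highest CPM for 9 of the 10 genes, all but Marco, and in normal diet livers replicate 3 was highest for 7 and replicate 2 lowest for 8. In B-LGND2 livers replicate 3 was highest for 6 genes and replicate 1 lowest for 7, although replicate 1 had the most Clec4f. Replicate 2 was highest for Marco, Cd163 and Slc40a1. Over the 9 libraries, each gene's log2 CPM correlated with the mean of the other 9 genes at a Pearson r between 0.80 (Mrc1) and 0.98 (Cd5l). This describes libraries that fall into treatment groups and share depth and scaling.

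Among tested protein-coding genes outside the 10, the genes that followed their mean most closely over the 9 libraries were Cfp (r = 0.973), Tff3 (0.969), Lrrc25 (0.967), Adgre4 (0.964), Ncf4 (0.96), Cd300a (0.956), Cybb (0.956), Mmd2 (0.954), Il18bp (0.951) and P2ry13 (0.95). Cfp, which encodes the complement protein properdin, averaged 28.4 ± 5.4 CPM in B-LGND2 livers, 10.9 ± 3.46 in high fat vehicle livers and 13 ± 4.38 in normal diet livers (SD, n = 3 each). Cybb, the catalytic subunit of the phagocyte NADPH oxidase, averaged 15.7 ± 2.75 CPM in B-LGND2 livers, 6.84 ± 0.394 in high fat vehicle livers and 7.09 ± 1.58 in normal diet livers. Ncf4, another subunit of that oxidase, had 4.29 ± 0.427 CPM in B-LGND2 livers, 0.896 ± 0.408 in high fat vehicle livers and 1.14 ± 0.438 in normal diet livers. Choosing genes by correlation with a mean that was higher in B-LGND2 livers favours such genes, so these differences are no separate evidence. Among the genes so chosen, the steepest differences were in Mmd2 and in Tff3, a secreted trefoil peptide. Tff3 averaged 55.2 ± 15.9 CPM in B-LGND2 livers, 3.31 ± 0.932 in high fat vehicle livers and 3.64 ± 1.6 in normal diet livers, and Mmd2 averaged 86.4 ± 16.3 CPM in B-LGND2 livers, 6.2 ± 2.12 in high fat vehicle livers and 9.15 ± 4.06 in normal diet livers.

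Of 14 further genes known from Kupffer cells, 11 were tested between B-LGND2 and vehicle on the high fat diet. All 11 log2 fold changes were positive, with a median of 0.81, but 2 passed the test, where 3.07% of all genes tested were called higher. Fcna, a ficolin of the lectin complement pathway, rose by 1.75 on the log2 scale (93.8 ± 31.4 CPM in B-LGND2 and 27.9 ± 6.31 CPM in vehicle livers, adjusted p = 0.00493). Adgre1, which encodes the macrophage antigen F4/80, rose by 1.59 (11.4 ± 5.54 CPM in B-LGND2 and 3.76 ± 0.141 CPM in vehicle livers, adjusted p = 0.0221, edgeR with Benjamini-Hochberg adjustment throughout). Fcna was called in 9 of 9 leave-one-out fits and Adgre1 in 5, the call of Adgre1 being lost without B-LGND2 replicate 3 or any of the high fat vehicle replicates (adjusted p up to 0.0975 in edgeR). The lectin receptor Clec1b did not pass, at 0.41, nor did Id3, a Kupffer lineage factor also found in other cells, at 1.03. Spic, the factor of haem-loaded red pulp macrophages, was too sparse to test, with 11, 29 and 20 counts in B-LGND2 livers and 4, 6 and 9 counts in vehicle livers. Clec1b, Id3 and Spic were chosen after their values were seen.

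Of 22 other scavenger and clearance receptors, 19 were tested between B-LGND2 and vehicle on the high fat diet. A positive log2 fold change was found for 12 of the 19, with a median of 0.43 over all 19. DESeq2 called 6 higher and 1 lower. In edgeR 5 were called higher and 0 lower, where 3.07% of all genes tested were called higher. The 5 were the Fc gamma receptors Fcgr4 (2.45), Fcgr1 (2.23) and Fcgr3 (1.39), the efferocytosis kinase Axl (1.38) and Cxcl16 (1.92), a chemokine that also binds oxidised lipoprotein (edgeR, Benjamini-Hochberg adjusted p between 0.00599 and 0.0298). Fcgr3 was named to complete the 5, after its value was seen. In leave-one-out fits Fcgr4 was called in 9 of 9, Fcgr1 in 8, Axl in 7 and Cxcl16 in 6. Fcgr4 had 15.2 ± 9.79 CPM in B-LGND2 livers and 2.74 ± 0.298 CPM in vehicle livers. Axl had 43.2 ± 10.7 CPM in B-LGND2 livers and 16.5 ± 1.51 CPM in vehicle livers. Between the diets under vehicle 1 of the 19 rose, where 2.99% of all genes tested were called in either direction. It was the ferritin receptor gene Scara5, at 119 ± 31.9 CPM in high fat and 48.4 ± 8.95 CPM in normal diet livers (log2 fold change 1.30, edgeR, Benjamini-Hochberg adjusted p = 0.013). Scara5 is not known as a Kupffer cell gene.

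Among 18 niche signals and lineage factors, 17 were tested, and 2 rose and 2 fell with B-LGND2 on the high fat diet (median log2 fold change 0.49). Of all genes tested, 3.07% were called higher and 2.56% lower. Csf1r, the receptor that keeps macrophages alive, rose by 1.42 (64.7 ± 14.9 CPM in B-LGND2 and 24.1 ± 4.84 CPM in vehicle livers, adjusted p = 0.00796). Spi1, which encodes PU.1, rose by 1.87 (8.03 ± 2.18 CPM in B-LGND2 and 2.17 ± 0.722 CPM in vehicle livers, adjusted p = 0.0131, edgeR with Benjamini-Hochberg adjustment). Whether PU.1 acts on the promoters shown above was not tested. Csf1r was called in 8 and Spi1 in 6 of 9 leave-one-out fits. Cebpb, a factor with roles in macrophages that other liver cells express too, fell by 0.94 on the log2 scale (77 ± 21.8 CPM in B-LGND2 and 148 ± 35.8 CPM in vehicle livers, edgeR, Benjamini-Hochberg adjusted p = 0.0401). It kept its call in 3 of 9 leave-one-out fits.

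Of 18 genes of iron recycling, the trade served by Cd163 and Slc40a1, 16 were tested. With B-LGND2 on the high fat diet 1 rose and 3 fell (median log2 fold change 0.26), where 3.07% of all genes tested were called higher and 2.56% lower. Tfrc, the transferrin receptor, rose by 1.46 (24.6 ± 10.1 CPM in B-LGND2 and 8.88 ± 1.56 CPM in vehicle livers, edgeR, Benjamini-Hochberg adjusted p = 0.0157). Aco1 and Ireb2, which encode the iron regulatory proteins, fell by 0.96 and 0.85, and Hamp2, a hepcidin gene of hepatocytes, fell by 1.20 (adjusted p between 0.0238 and 0.0397). Over the 9 fits that left out 1 library, Tfrc was called in 5, Aco1 in 4, and Ireb2 and Hamp2 in 3 each, with adjusted p up to 0.152 in edgeR. These genes are expressed well beyond macrophages. Hmox1, the haem-degrading oxygenase, did not pass, with a log2 fold change of 0.45. It was named after its value was seen.

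**Figure D5:**
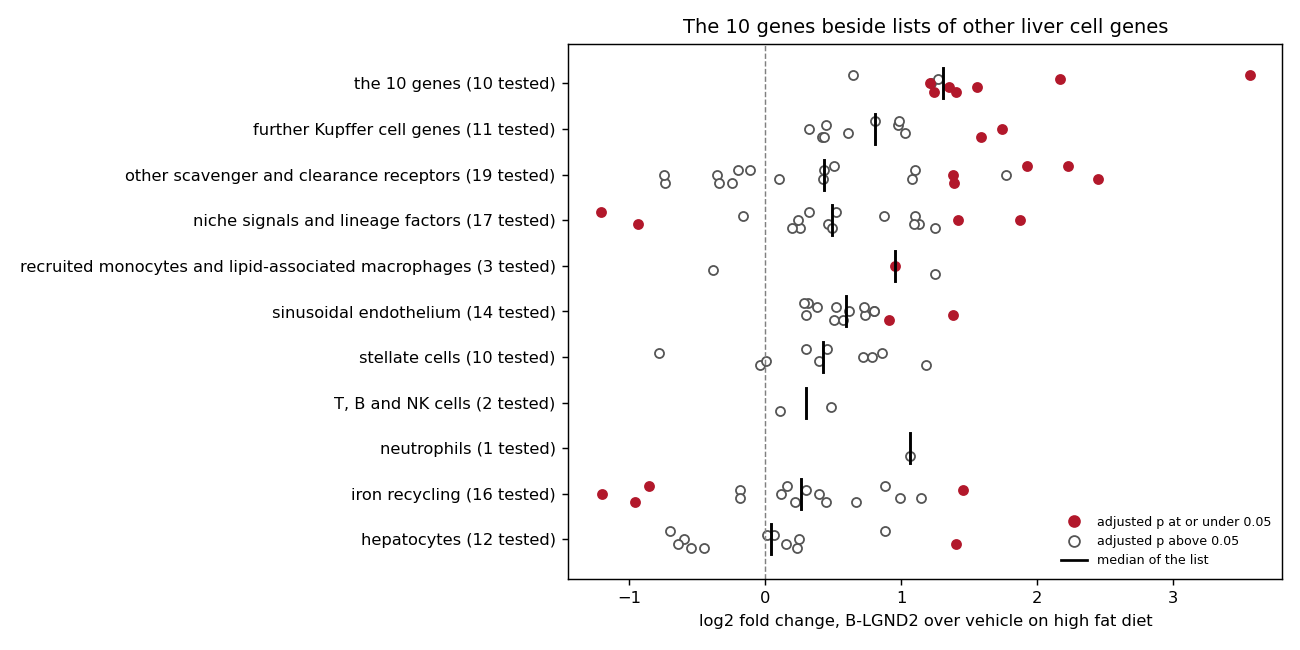
Log2 fold change between B-LGND2 and vehicle on the high fat diet for each tested gene of the 10-gene group and of 10 other gene lists; each point is a gene, filled where the adjusted p passed 0.05, and vertical bars are list medians. The 10 genes have a median of 1.31, further Kupffer cell genes 0.81 and hepatocyte genes 0.04.

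Some markers of sinusoidal endothelium passed the test as well. Sinusoidal endothelial markers summed to between 460 and 585 CPM in B-LGND2 livers, 269 and 349 CPM in high fat vehicle livers and 305 and 408 CPM in normal diet livers. All 14 had a positive log2 fold change with B-LGND2 on the high fat diet (median 0.60). Called higher were 2, where 3.07% of all genes tested were, Gpr182 by 1.38 and Kdr by 0.91 (edgeR, Benjamini-Hochberg adjusted p = 0.0124 for Gpr182 and 0.0418 for Kdr). Gpr182 was called in 6 and Kdr in 3 of 9 leave-one-out fits, with adjusted p up to 0.0756 for Gpr182 and 0.208 for Kdr in edgeR. Between the diets under vehicle 1 of the 14 was called, where 2.99% of all genes tested were. It was Flt4, higher on the high fat diet (log2 fold change 0.93, edgeR, Benjamini-Hochberg adjusted p = 0.0369). Flt4 kept that call in 3 of 9 leave-one-out fits. Against normal diet vehicle 5 of the 14 were called higher with B-LGND2, where 1.59% of all genes tested were. Stellate cell markers summed to between 205 and 326 CPM in B-LGND2 livers and between 190 and 226 CPM in high fat vehicle livers. Of these 10 markers 0 passed in edgeR, where 5.63% of all genes tested did, with 3 at an unadjusted p under 0.05 and 1 called by DESeq2. The part that other cells had in the change of Mrc1 and Slc40a1 was not tested.

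Markers of recruited monocytes and lipid-associated macrophages were mostly sparse. Their sum was between 47.6 and 65 CPM in B-LGND2 livers, 27.8 and 31.7 CPM in high fat vehicle livers and 38.3 and 42.8 CPM in normal diet livers. Most of that was Spp1, which cholangiocytes make too and which rose by 0.95 on the log2 scale (46.1 ± 8.17 CPM in B-LGND2 and 23.8 ± 1.51 CPM in vehicle livers, edgeR, Benjamini-Hochberg adjusted p = 0.0228). Spp1 was called in 5 of 9 leave-one-out fits, with adjusted p up to 0.114. Of the 15 genes 3 had enough counts to test, Spp1, Cx3cr1 and Cd9, and 2 of the 3 log2 fold changes were positive. Cd9 went the other way, at -0.38, and did not pass (edgeR, Benjamini-Hochberg adjusted p = 0.726). It had 0.991 ± 0.586 CPM in B-LGND2 livers and 1.26 ± 0.605 CPM in high fat vehicle livers. Chil3 had 0 counts in all 9 libraries, Ly6c2 at most 5, Ccr2 between 2 and 11 and Trem2 between 0 and 8. Cx3cr1 had 16, 12 and 9 counts in B-LGND2 livers, against 4, 8 and 2 counts in high fat vehicle livers, without overlap, and did not pass (log2 fold change 1.25, edgeR, Benjamini-Hochberg adjusted p = 0.339). Itgam, too sparse to test, had 11, 11 and 6 counts in B-LGND2 livers, against 2, 6 and 5 counts in high fat vehicle livers, and its CPM did not overlap. Chil3, Ly6c2, Ccr2, Trem2, Itgam and Cd9 were named after their values were seen. T, B and NK cell markers summed to between 15.1 and 22.3 CPM in B-LGND2 livers, 11.5 and 14.1 CPM in high fat vehicle livers and 12.6 and 15.2 CPM in normal diet livers. Neutrophil markers summed to between 5.55 and 9.98 CPM in B-LGND2 livers, 3.15 and 4.87 CPM in high fat vehicle livers and 2.18 and 10.8 CPM in normal diet livers, with Ly6g, Ltf and Mpo at 0 counts throughout. Cholangiocyte markers, Spp1 included, summed to between 52.6 and 65.5 CPM in B-LGND2 livers, 30.5 and 36.2 CPM in high fat vehicle livers and 36.1 and 46.4 CPM in normal diet livers. Erythroid markers summed to between 204 and 272 CPM in B-LGND2 livers and between 113 and 237 CPM in high fat vehicle livers. In normal diet livers their sum was between 142 and 550 CPM. Between B-LGND2 and high fat vehicle 5 were tested, with a median log2 fold change of -0.53 and 2 positive values. Of the 5, 0 were called in edgeR, where 5.63% of all genes tested were. An unadjusted p under 0.05 was found for 2, and DESeq2 called 0. Of 12 hepatocyte markers 1 rose, where 3.07% of all genes tested were called higher, and their median log2 fold change was 0.04. It was Apoa1, with a log2 fold change of 1.40 (edgeR, Benjamini-Hochberg adjusted p = 0.0283). Apoa1 was counted 500854, 161746 and 120400 times in B-LGND2 livers, against 71503, 86324 and 98423 times in vehicle livers on the high fat diet. It lost its call without B-LGND2 replicate 1, the highest library, and was called in 5 of 9 leave-one-out fits.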

How the data were processed

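Liver RNA of 9 mice was enriched for polyadenylated RNA and sequenced on an Ion Torrent Proton, per the labels' protocols. The authors deposited whole-number read counts per Ensembl gene. Genome build GRCm38.p3 and the tools HTSeq 0.6.1p1, DESeq2 1.6.3, TopHat2 2.0.13, SAMtools 0.1.19 and Bowtie2 2.2.4 are named, with no roles, in the submitters' processing notes. For the annotation release and strand setting, nothing is given in the sources used here. Symbols came from the annotation supplied (44671 of 45513 IDs matched).

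Counts were fitted here with edgeR 4.0.16 (R 4.3.3): genes passing filterByExpr with a minimum count of 10 (12102), TMM scaling, robust quasi-likelihood, all 9 libraries in 1 fit with group as the only term (6 residual degrees of freedom), two-sided tests and Benjamini-Hochberg adjustment at 0.05 over all genes. The code was tested on simulated counts. CPM used TMM-scaled library sizes. Replicates were taken as separate animals from the design text, and no 2 libraries agreed within sampling noise (smallest chi-square per degree of freedom 12.58). Library totals ranged from 5778978 to 10322972, and 3 counts correspond to between 0.347 and 0.498 CPM.

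The 10 genes and all lists were chosen with earlier results of these data known. Beside the 10 genes, the text names from each list and comparison at most 4 called genes by smallest p, except where it says otherwise and except for 1 listed gene that is not reported here, and the 10 genes with the highest correlation with the mean of the 10. Motifs were searched on both strands of RefSeq promoters. Alternatives were other scalings, filters, tools (DESeq2 1.42.0, limma-voom 3.58.1), sample sets, a length and GC correction, the rRNA share as a covariate, a replicate block, pseudocounts and leaving out each library.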

Additional observations from a re-analysis of the deposited data

How the results depend on the processing

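Across every alternative tried, the log2 fold changes of the 10 genes between B-LGND2 and vehicle on the high fat diet were positive for each gene tested (9 genes under a minimum of 50 counts in 3 libraries, 10 otherwise). Of the 10, 6 were called without scaling and 10 with a length and GC correction, the other settings with all libraries lying between, except that 0 were called with the rRNA share as a covariate. Leaving out 1 library gave from 2 to 9 calls. Against normal diet vehicle, 3 genes were called with only the 2 groups in the fit, 8 with the length and GC correction and 1 with the rRNA covariate, and leaving out 1 library gave from 2 to 6. The cause was not tested.

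Between the diets under vehicle, some directions reversed. Without scaling the log2 fold change was 0.032 for Clec4f, 0.14 for Vsig4 and 0.038 for Slc40a1. With the length and GC correction it was 0.32 for Vsig4, 0.046 for Timd4 and -0.016 for Cd163, and with the rRNA covariate 0.047 for Clec4f and -0.18 for Cd163. Leaving out 1 library gave -0.33 to 0.19 for Clec4f, -0.28 to 0.14 for Vsig4 and -0.14 to 0.54 for Cd163. The log2 ratio of Msr1 over Clec4f differed between B-LGND2 and high fat vehicle livers by -0.21 with a pseudocount of 2 and by 0.01 with 0.5. Apoa1 had a log2 fold change of -0.33 in that comparison with the rRNA covariate. Without scaling, the median of all genes moved to -0.18 for B-LGND2 against high fat vehicle and to 0.17 between the diets, where the medians of the 10 genes were 1.15 and 0.0039, and the share of higher calls over all genes was 31.2% in place of 54.5% and 72.6% in place of 50.3%.

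Over all genes, B-LGND2 against high fat vehicle gave 681 calls, 1345 without a filter, 1123 in DESeq2, 1420 with only the 2 groups, 2 with the rRNA covariate and 100 to 1439 with 1 library left out. The diet gave 362, 1182, 984, 153, 1 and 35 to 1860 calls in the same order, and B-LGND2 against normal diet vehicle 354, 751, 660, 144, 12 and 111 to 639. Replicate numbers are not said to pair animals, and deviations of same-numbered libraries correlated between -0.193 and 0.124, not every library being closest to its own number. With a replicate block, 8 of the 10 genes were called for B-LGND2 against high fat vehicle, 0 between the diets and 5 against normal diet vehicle. Over all genes that fit gave 488, 203 and 253 calls in the same order. Depth limits Marco and Timd4 most, with 4 to 21 counts in each high fat vehicle liver.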
